A study of Mus musculus with 6 samples.

Results

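Fxyd2 and 6 further genes of the sodium pump were followed in J774A.1, a macrophage-like cell line from BALB/c mice. The 7 genes, Fxyd1, Fxyd2, Fxyd5, Fxyd6, Atp1b1, Atp1b2 and Atp1b3, each had exactly 1 array feature paired with no other symbol, of 22180 genes with such a feature in all. The genes were chosen by the difference of Fxyd2, which was higher after neuropeptide FF (NPFF), an amidated peptide that acts on G-protein-coupled receptors; the others are its relatives or partners. For that reason the differences of all 7 genes are given as a description with no test. The control group was 3 arrays of cells given the phosphate-buffered saline vehicle for 18 h, which the sample titles call non-treated. The NPFF group was 3 arrays of cells given NPFF at 1 nM for 18 h. Both groups were grown in RPMI-1640 with 10% FCS. J774A.1 is a transformed line and stands for macrophages only within that limit. The titles name biological replicates, but nothing says whether they came from separate cultures or days, so the errors measure the spread between these samples.

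The sodium pump (Na,K-ATPase) uses ATP to move sodium out of the cell and potassium in, and sets the gradients that drive sodium-coupled transport and help to set cell volume. It consists of a catalytic alpha subunit, which binds ATP and the ions, and a glycosylated beta subunit, which brings the alpha subunit to the plasma membrane. Small single-span proteins with an FXYD sequence motif bind the complex and tune its affinity for ions. Fxyd2, also called the gamma subunit, is best known from the kidney tubule.

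Of the 7 genes, 5 are in the RefSeq promoter table (GRCm38.p6), and those of Fxyd2 and Atp1b2 were not analysed here. In that annotation Fxyd2 lies next to Fxyd6 on chromosome 9, whereas Fxyd5, Fxyd7 and Fxyd1 follow each other on chromosome 7. The 250 bases before the annotated start are shown for the FXYD gene and the beta subunit gene with the strongest array signal apart from Fxyd2 (Fxyd5 and Atp1b3), and for a relative of each with lower signal (Fxyd6, the neighbour of Fxyd2, and Atp1b1). Capitals mark the GC box GGGCGG, the CCAAT box CCAAT and the TATA box TATAAA, searched on both strands. The windows are chr7:31042332-31042581 (minus strand), chr9:45369935-45370184 (plus strand), chr1:164458356-164458605 (minus strand) and chr9:96364432-96364681 (minus strand, the first of 2 annotated starts).
Fxyd5: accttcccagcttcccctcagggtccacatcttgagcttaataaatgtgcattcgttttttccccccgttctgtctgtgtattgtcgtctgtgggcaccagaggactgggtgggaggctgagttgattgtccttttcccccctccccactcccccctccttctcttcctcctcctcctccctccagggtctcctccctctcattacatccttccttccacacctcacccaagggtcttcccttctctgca
Fxyd6: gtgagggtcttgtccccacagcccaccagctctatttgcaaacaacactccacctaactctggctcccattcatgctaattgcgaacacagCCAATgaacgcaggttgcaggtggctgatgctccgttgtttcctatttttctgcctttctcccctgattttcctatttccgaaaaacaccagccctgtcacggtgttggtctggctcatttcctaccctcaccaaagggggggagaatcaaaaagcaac
Atp1b1: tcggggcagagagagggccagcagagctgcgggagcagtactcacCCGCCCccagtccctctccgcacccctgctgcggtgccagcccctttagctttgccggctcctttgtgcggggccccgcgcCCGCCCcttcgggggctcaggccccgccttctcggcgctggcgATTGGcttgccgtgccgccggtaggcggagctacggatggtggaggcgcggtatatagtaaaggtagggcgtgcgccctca
Atp1b3: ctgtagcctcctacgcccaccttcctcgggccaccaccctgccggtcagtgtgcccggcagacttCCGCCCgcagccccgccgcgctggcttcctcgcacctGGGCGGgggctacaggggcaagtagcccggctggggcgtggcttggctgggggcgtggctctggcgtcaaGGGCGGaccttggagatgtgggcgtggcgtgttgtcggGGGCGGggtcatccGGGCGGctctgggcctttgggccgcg

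The beta subunit windows were richer in G and C than the FXYD windows. G and C made up 73.6% of the Atp1b3 window and 70.4% of the Atp1b1 window, each with 24 CpG dinucleotides. They made up 55.6% of the Fxyd5 window, with 3 CpG, and 50.4% of the Fxyd6 window, with 5. The median of all 32851 windows of this length was 52.4%, with 6 CpG. The GC box occurred 5 times in the Atp1b3 window shown and 2 times before Atp1b1, and in 32.7% of all windows. The window of the second Atp1b3 start, with 76.8% G and C and 35 CpG, held 0 GC boxes. The CCAAT box occurred once each before Fxyd6 and Atp1b1, and in 33.8% of all windows. None of the 4 windows held the letters TATAAA, which 12.4% of all windows held. The array features of Atp1b1 and Atp1b3, whose windows shown above both hold GC boxes, lay at the 29.1st and the 98.9th percentile of mean signal over all genes. These ranks come from different probes, and a relation between GC boxes and signal was not tested.

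Values are log2 intensities, quantile-normalized over the 6 arrays, and differences are NPFF minus control. Across all genes the control arrays were less alike than the NPFF arrays, with Pearson's r over genes of 0.965 to 0.996 between controls and 0.996 to 0.997 between NPFF arrays. The median standard deviation (SD) of a gene was 0.14 in control and 0.07 in NPFF. Control 1 stood farthest from the other arrays and control 2 next, with SDs over genes of 0.37 and 0.21 from the mean of the other 5 arrays, against 0.11 to 0.13 for the rest. By limma, 0 of 22180 genes passed an adjusted p under 0.05 (0%), with a smallest adjusted p of 0.789. An unadjusted p under 0.05 was reached by 556 genes (2.51%), of which 185 had the higher mean in NPFF and 371 in control. Macrophage markers gave strong signal, with a median at the 94.7th percentile of mean signal over all genes and Lyz2, Cd68 and Cd14 on top. The markers of kidney tubule and epithelium had a median at the 40.1st percentile, and no member above the 62.8th, Krt8.

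Fxyd2, the pump's gamma subunit, was higher in every NPFF array than in every control. It stood at 11.79, 11.73 and 11.65 in controls 1 to 3 and 12.03, 12.09 and 12.07 in NPFF arrays 1 to 3 (feature 17516784). The groups did not overlap, and 0.24 separated the lowest NPFF array from the highest control. The control mean was 11.72 ± 0.07 and the NPFF mean 12.06 ± 0.03 (SD, n = 3 each), which differ by 0.34 (standard error, SE, 0.06), or 1.27-fold. Fxyd2 was the gene among the 7 without overlap, where 8.58% of all genes did not overlap and 3.67% were higher without overlap. That contrast chose the gene, so nothing is read from this count. As in any bulk sample, more cells making Fxyd2 and more of its RNA per cell cannot be told apart.

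The spread of Fxyd2 within each group was small for these arrays. Choosing a gene by its difference on these same arrays favours a small spread and a steady difference, so the following values are a description. Ranked over all genes, its SD was at the 19.5th percentile in control and at the 16.3rd in NPFF. The NPFF mean exceeded control 1 by 0.28, control 2 by 0.33 and control 3 by 0.41. With 1 array left out at a time the difference ranged from 0.30 to 0.37. As deposited, without further normalization, Fxyd2 stood at 11.72, 11.74 and 11.70 in controls 1 to 3 and 12.04, 12.07 and 12.08 in NPFF arrays 1 to 3. The order within each group thus changed, with NPFF 3 in place of NPFF 2 as the highest array, and the groups stayed separate.

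**Figure D1:**
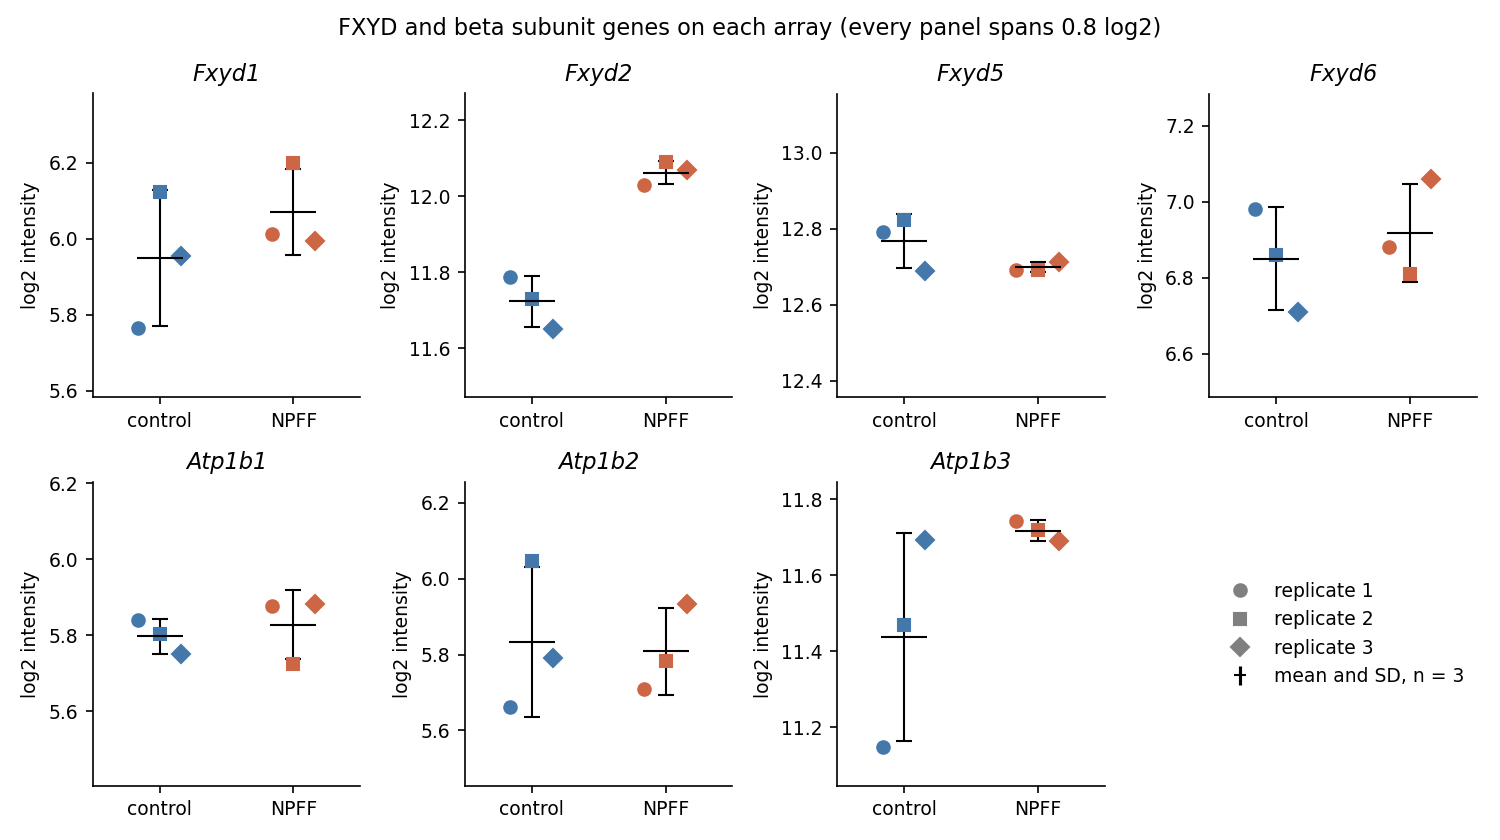
Log2 intensity of the 7 genes on each array, blue for control and orange for NPFF, with the shape of a point giving the replicate number and the bars the mean and SD of 3 arrays; every panel spans 0.8 log2. Fxyd2 is the panel in which the groups separate, at 11.65 to 11.79 against 12.03 to 12.09, and in Atp1b3 control 1 lies lowest at 11.15 and control 3 at 11.69 lies with the NPFF arrays.

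Fxyd2 gave strong signal in these cells, at the 99.2nd percentile of mean signal over all genes. Such a rank compares features with different probes, so it shows that signal was present and sets no order of transcript levels between genes. The kidney tubule markers were dim beside it: Umod lay at the 49.6th percentile, the sodium chloride cotransporter Slc12a3 at the 43.8th, Cdh16 at the 40.1st and Pax8 at the 26.8th. The array means over the 13 kidney and epithelial markers spanned 5.90 to 6.12 in control and 6.04 to 6.05 in NPFF. No detection call came with the values, so no marker can be called absent.

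Fxyd6, the chromosomal neighbour of Fxyd2 and a pump regulator best known from the brain, did not share its separation. It stood at 6.98, 6.86 and 6.71 in controls 1 to 3 and 6.88, 6.81 and 7.06 in NPFF arrays 1 to 3. The groups overlapped, with control 1 above 2 of the NPFF arrays. The difference was 0.07 (SE 0.10), which became -0.00306 without control 3, -0.00443 without NPFF 3, 0.13 without control 1 and 0.21 against control 3 alone. Signal was moderate, at the 56.6th percentile. Dscaml1, the protein-coding gene on the other side of Fxyd2, had a difference of -0.08 (SE 0.06).

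Fxyd5, also called dysadherin, is a pump regulator that weakens cell adhesion. It gave the strongest signal of the 7, at the 99.8th percentile, and varied least, with 0.14 between the highest and the lowest array. It stood at 12.79, 12.82 and 12.69 in controls 1 to 3 and 12.69, 12.69 and 12.71 in NPFF arrays 1 to 3. Controls 1 and 2 lay above all NPFF arrays and control 3 just below them; as deposited, control 3 at 12.71 lay among the NPFF values of 12.66 to 12.74. The means were 12.77 ± 0.07 and 12.70 ± 0.01 (SD, n = 3 each), with -0.07 between them (SE 0.06), and 0.01 when control 3 was the sole control. The files hold no saturation flag for features this bright.

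Fxyd1, or phospholemman, is the FXYD protein of heart and skeletal muscle and was dim here, at the 36.0th percentile. It stood at 5.77, 6.12 and 5.96 in controls 1 to 3 and 6.01, 6.20 and 5.995 in NPFF arrays 1 to 3. The groups overlapped, with control 1 lowest and NPFF 2 highest. The difference of 0.12 (SE 0.11) was 0.03 without control 1 and 0.21 without control 2. Among the other FXYD genes, Fxyd4, a regulator of the kidney collecting duct, had a difference of 0.06 (SE 0.08) and the brain regulator Fxyd7 one of -0.03 (SE 0.10). The feature that Fxyd3 shares with Lgi4 had a difference of 0.09 (SE 0.08), and the 2 genes cannot be told apart there. Fxyd4 and Fxyd7 were both dim, at the 39.5th and 47.5th percentiles.

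Atp1b3, a widely expressed beta subunit that leukocytes carry on their surface, had the second highest difference of the 7, but its controls did not stand together. It stood at 11.15, 11.47 and 11.69 in controls 1 to 3 and at 11.74, 11.72 and 11.69 in NPFF arrays 1 to 3 (feature 17529793). Control 1 was lowest and control 2 next, while control 3 lay just above NPFF 3, so the groups overlapped. The control mean was 11.44 ± 0.27 and the NPFF mean 11.72 ± 0.03 (SD, n = 3 each), which differ by 0.28 (SE 0.14). The NPFF mean exceeded control 1 by 0.57, control 2 by 0.25 and control 3 by 0.03. Without control 1 the difference was 0.14, without control 3 it was 0.41, and against control 3 alone it was 0.03. Ranked over all genes, the SD of Atp1b3 was at the 79.9th percentile in control and at the 13.3rd in NPFF. For Fxyd2 the NPFF mean exceeded the 3 controls by 0.28 to 0.41. For Atp1b3 it exceeded them by 0.03 to 0.57, most against control 1, the array that stood farthest apart, and next against control 2. Fxyd2 was chosen by this contrast, which favours an even excess, so nothing is read from setting Atp1b3 beside it.

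The other beta subunits were dim. Atp1b1, the main beta subunit of epithelia, lay at the 29.1st percentile, with 5.84, 5.80 and 5.75 in controls 1 to 3 and 5.88, 5.72 and 5.88 in NPFF arrays 1 to 3. Its values spanned 0.16 over all arrays, and NPFF 2 was the lowest. The difference was 0.03 (SE 0.07). Atp1b2, a beta subunit of glia that also acts in adhesion, lay at the 29.4th percentile. It stood at 5.66, 6.05 and 5.79 in controls 1 to 3 and 5.71, 5.78 and 5.93 in NPFF arrays 1 to 3, so both ends of its range were controls. Its difference of -0.02 (SE 0.12) turned to 0.08 without control 2, to 0.03 without NPFF 1 and to 0.02 against control 3 alone. Atp1b4, a muscle relative of the beta subunits, had a difference of -0.03 (SE 0.06) and lay at the 45.5th percentile. At such signal a small difference says little about the transcript.

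**Figure D2:**
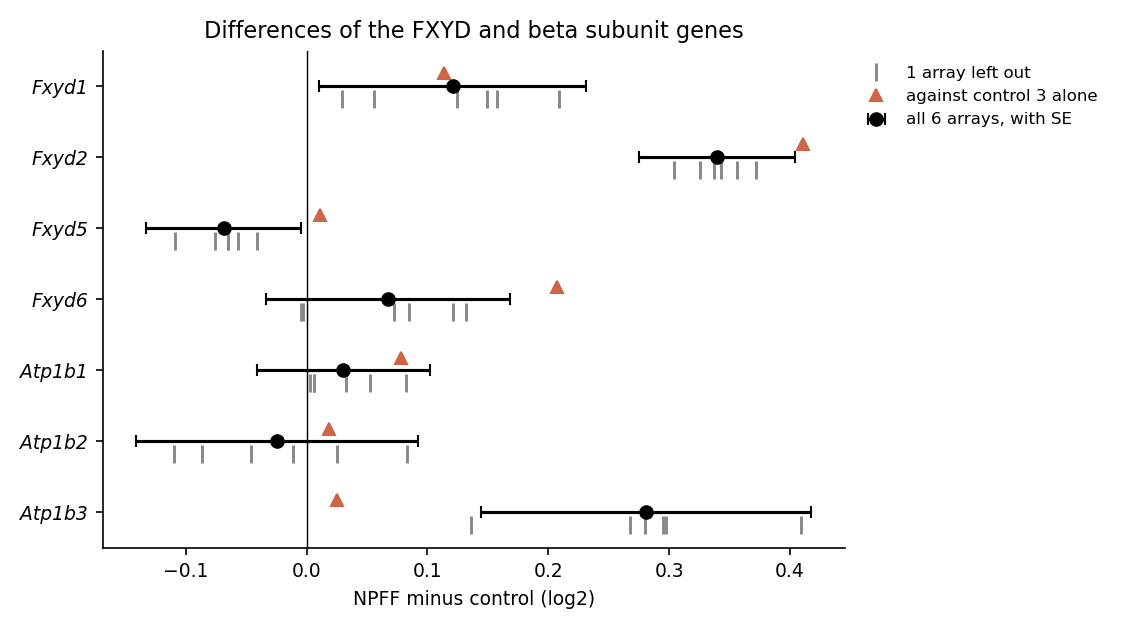
Difference between NPFF and control in log2 for the 7 genes; black points with bars are the difference and its SE over all 6 arrays, grey ticks the difference with 1 array left out, and orange triangles the difference against control 3 alone. Fxyd2, the gene chosen by this contrast, stays between 0.30 and 0.41 in all of these. Atp1b3 goes from 0.28 to 0.03 against control 3 alone.

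Atp1a4, a catalytic subunit known from sperm, was dim, at the 40.6th percentile. It stood at 6.11, 6.39 and 5.92 in controls 1 to 3 and 6.09, 6.17 and 6.26 in NPFF arrays 1 to 3. All NPFF values lay inside the range of the controls. The difference was 0.03 (SE 0.13), with -0.08 without control 3 and 0.15 without control 2.

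**Figure D3:**
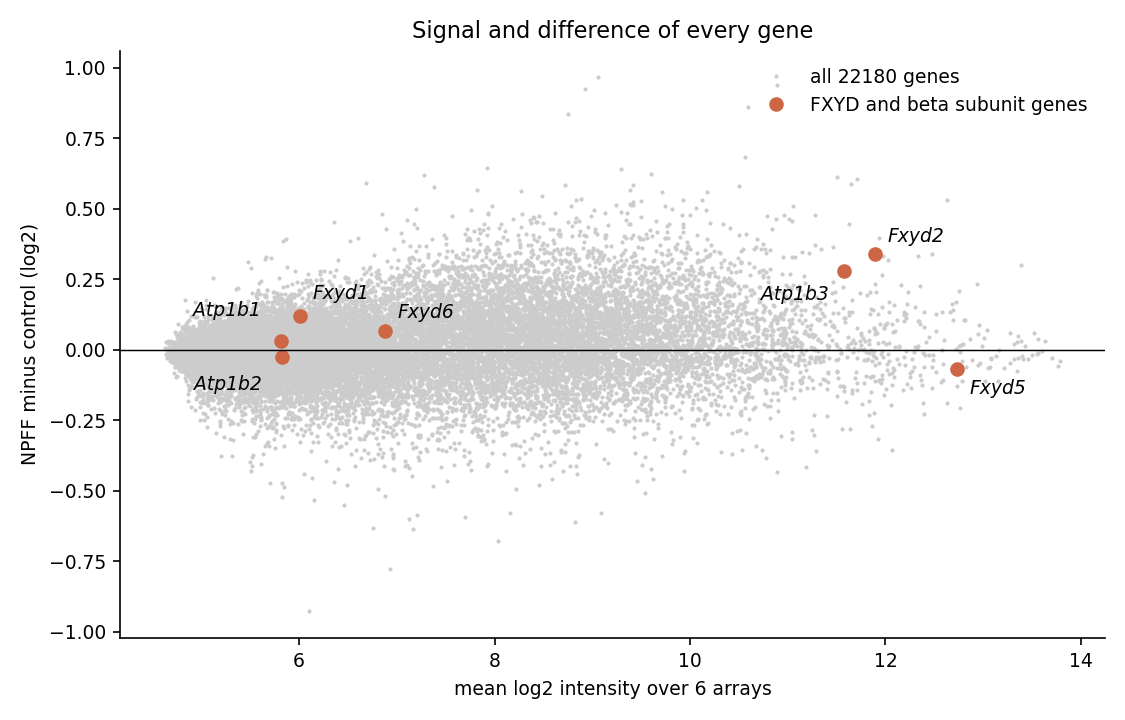
Mean log2 intensity over the 6 arrays against the difference between NPFF and control for all 22180 genes (grey), with the 7 genes in orange. Fxyd2, Fxyd5 and Atp1b3 lie at the bright end, Fxyd2 at a difference of 0.34, and the other 4 lie at or below a mean of 6.88.

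Lists of other ion transport genes were set beside the 7. None of their members passed limma in either direction, as none of all 22180 genes did (0%), so nothing about the lists is read from this. The 12 other P-type cation pumps had 7 higher and 5 lower, with a median difference of 0.04 beside 0.00 over all genes. Atp12a, a proton and potassium pump, was higher without overlap at 0.11 (SE 0.08), where 3.67% of all genes were. Only 0.002 separated its groups, it was dim, at the 32.5th percentile, and it differed by 0.04 without control 1. The lysosomal pump Atp13a2 had a difference of 0.22 (SE 0.17), which was 0.02 without control 1 and -0.01 against control 3 alone. The plasma membrane calcium pump Atp2b1 had one of -0.10 (SE 0.07) and the muscle calcium pump Atp2a1 one of -0.09 (SE 0.11), or 0.02 without control 2. The endoplasmic reticulum calcium pump Atp2a2 lay between 10.83 and 10.90 on all arrays.

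In the list of sodium-coupled transporters and exchangers, 10 were higher and 4 lower of 14, with a median of 0.05. Many of them use the sodium gradient that the pump makes. The list also holds the potassium chloride cotransporters Slc12a4 and Slc12a7 and the mitochondrial exchanger Slc8b1. It leaves out Slc6a12, a sodium-coupled transporter with a larger difference, 0.86 (SE 0.10). Slc6a12 was higher without overlap, where 3.67% of all genes were. Slc8a1, the sodium and calcium exchanger of the plasma membrane, was lower without overlap, where 4.92% of all genes were. It stood at 7.12, 7.30 and 7.19 in controls 1 to 3 and 6.89, 6.87 and 7.12 in NPFF arrays 1 to 3. NPFF 3 lay just under control 1, and the others were well below. The difference of -0.25 (SE 0.09) ranged from -0.33 to -0.20 with 1 array left out and did not pass over all genes (limma, adjusted p = 1.00). The mitochondrial exchanger Slc8b1 had a difference of 0.24 (SE 0.17), or 0.04 without control 1, and the phosphate transporter Slc20a2 one of 0.14 (SE 0.12), or 0.02 without control 1. Slc9a8, a sodium and proton exchanger, had a difference of -0.06 (SE 0.10), or 0.02 without control 2.

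Control 1 was the lowest of the 6 arrays in 9 of these 14 genes, and in 48.9% of all genes. Slc12a7 and Slc12a4, potassium chloride cotransporters that act in volume regulation, are examples. Slc12a7 stood at 7.09 in control 1 and between 8.08 and 8.32 on the other arrays. Slc12a4 stood at 7.67 and between 8.22 and 8.50. These 2 were named after their values were seen. Without control 1 the list's median turned from 0.05 to -0.07, with 5 higher and 9 lower (64.3% lower), beside a median of -0.02 and 60.9% lower over all genes. The medians of the P-type pumps and of the regulators moved the same way, from 0.04 to 0.00 and from 0.03 to -0.05. Of the 7 pump genes, Fxyd1, Atp1b2 and Atp1b3 were lowest in control 1.

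Potassium channels, the paths by which pumped potassium leaves the cell, and volume-regulated anion channels were 4 higher and 9 lower of 13, with a median of -0.05. None of the 13 was without overlap, where 8.58% of all genes were. Without control 1 they were 1 higher and 12 lower, with a median of -0.07, where 60.9% of all genes were lower. Kcnn4, a calcium-activated potassium channel of immune cells, had a difference of 0.32 (SE 0.20), or 0.08 without control 1. Kcna3, a voltage-gated channel of immune cells, had one of -0.18 (SE 0.15), or -0.04 without control 2. Differences were -0.10 (SE 0.07) for Lrrc8c, a subunit of the volume-regulated anion channel, which was -0.05 without control 2, and 0.07 (SE 0.10) for the chloride transporter Clcn3, which was -0.02 without control 1. Regulators of the pump and of cell volume were 7 higher and 3 lower of 10, with a median of 0.03. Nfat5, the transcription factor of the response to hypertonicity, had a difference of 0.10 (SE 0.06), the kinase Wnk1 one of -0.12 (SE 0.07), or -0.07 without control 1, and Oxsr1, a kinase that acts after it, one of 0.12 (SE 0.16), or -0.03 without control 1. Hsd11b1, which activates glucocorticoids, was lower without overlap at -0.11 (SE 0.07), with a gap of 0.02, where 4.92% of all genes were lower without overlap. It was dim, at the 38.2nd percentile, and differed by -0.07 without control 1.

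**Figure D4:**
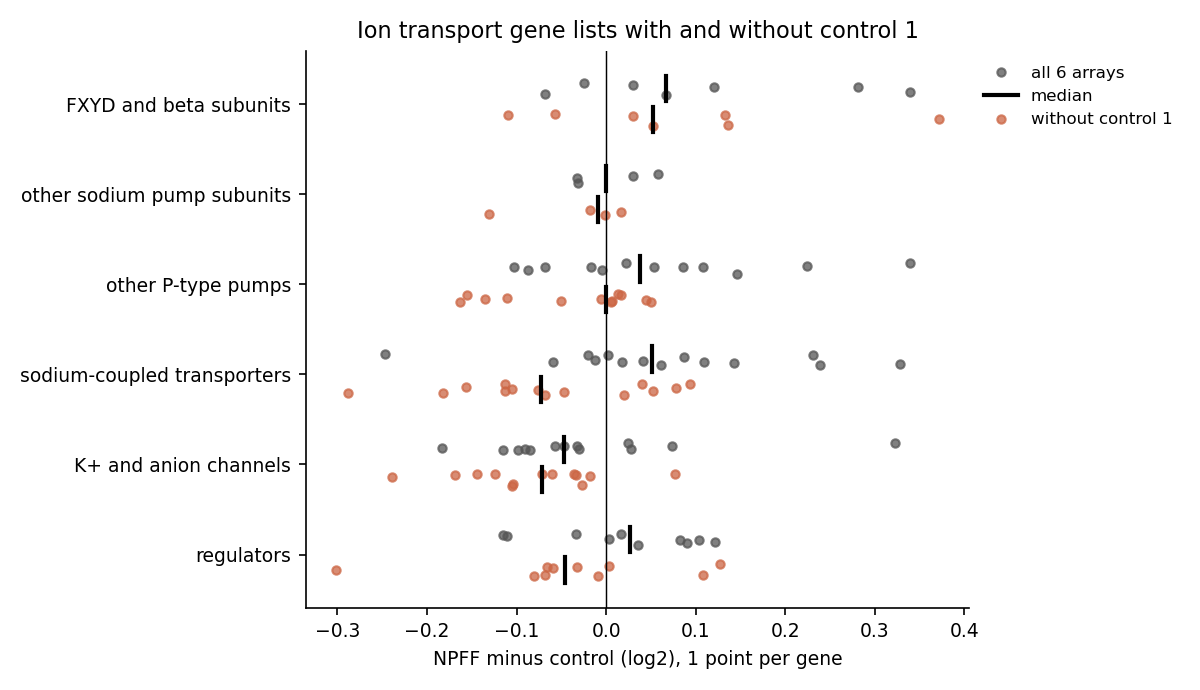
Difference between NPFF and control in log2 for each gene of 6 lists, 1 point per gene, over all 6 arrays (grey) and without control 1 (orange), with black bars at the medians. Without control 1 the median of the sodium-coupled transporters goes from 0.05 to -0.07, and the rightmost orange point of the top row is Fxyd2 at 0.37.

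The genes whose values over the 6 arrays were most like those of Fxyd2 were ranked by Pearson's r among 12756 genes that varied at least 0.5 times as much as Fxyd2. The arrays fall into 2 groups that Fxyd2 separates, so r mostly measures the same separation and is given as a description. Xlr3a had the highest r at 0.98, followed by Mroh8 at 0.95, Snx9, a sorting nexin of endocytosis, at 0.95, Atrn, or attractin, at 0.95 and Nrxn2, a neurexin, at 0.94. Xlr3a is one of several near-identical X-linked copies, so its feature may read more than one of them. It stood at 6.69, 6.69 and 6.58 in controls 1 to 3 and 6.86, 6.98 and 6.90 in NPFF arrays 1 to 3. Control 3 was lowest and NPFF 2 highest, as for Fxyd2 in the quantile-normalized values. The opposite pattern was closest in the pseudogene Rbx1-ps at -0.98, the transporter Slc35f5 at -0.97 and the cytidine deaminase Apobec1 at -0.96. In all 8 the groups did not overlap. Signal was moderate or dim for Xlr3a, Mroh8, Nrxn2 and Rbx1-ps, at the 54.9th, 48.6th, 47.7th and 30.2nd percentiles, and Mroh8 differed by 0.15. The others lay between the 73rd percentile (Slc35f5) and the 99th (Apobec1). An r over 0.9 was reached by 14 genes, and one under -0.9 by 34. Among the 7 pump genes the r with Fxyd2 was 0.47 for Atp1b3, 0.43 for Fxyd6, 0.39 for Fxyd1, 0.28 for Atp1b1, -0.11 for Atp1b2 and -0.48 for Fxyd5.

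**Figure D5:**
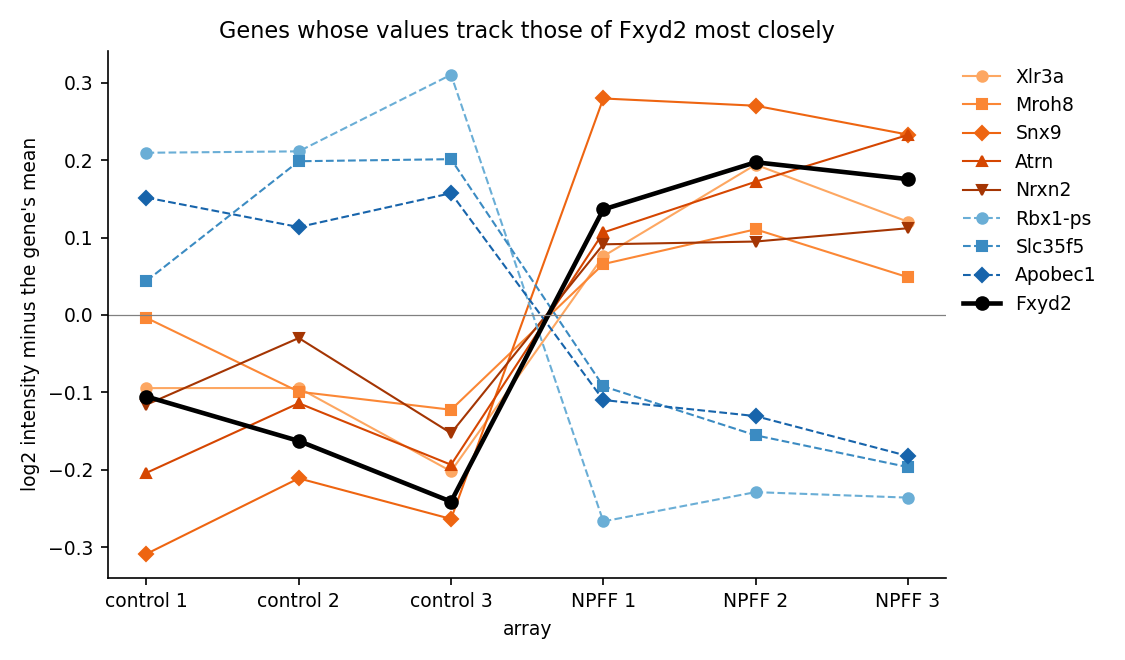
Log2 intensity on each array minus the gene's own mean, for Fxyd2 (black), the 5 genes with the highest r with it (orange, solid) and the 3 with the lowest (blue, dashed); lines only join the points of a gene. All 9 genes change side between the controls and the NPFF arrays, and r runs from 0.94 to 0.98 in the first set and from -0.98 to -0.96 in the second.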

How the data were processed

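Total RNA, 500 ng per sample, was labelled with biotin by the Affymetrix whole-transcript kit, per the labels' protocols, and measured on 6 arrays, 3 per group as named in the sample titles. The deposited values are log2 intensities per feature, as read from their range of 4.59 to 14.0. For the scanner software, the background correction, the normalization by the authors and the genome build, nothing is given in the sources used here.

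Of 33794 features, 23521 were paired with 1 gene symbol by the platform annotation, 1814 with several and 8459 with none. Sorted arrays departed from their mean by up to 0.172 log2, so all features were quantile-normalized. The brightest feature per gene gave 22180 genes. NPFF was compared with control by limma 3.58.1 (R 4.3.3; lmFit, eBayes, group only, 4 residual and 2.49 prior degrees of freedom), with two-sided p-values adjusted by Benjamini-Hochberg over the 22180 genes. A script tested on simulated data for this comparison of 22180 genes recovered 37.3%, 77.6% and 97.0% of changes of 0.5, 1 and 2 log2. Of its 147 calls, 6 were on genes left unchanged. The simulated noise was independent between arrays and equally wide in both groups. On the real arrays the controls spread more than the NPFF arrays, and control 1 stood apart. The recovered shares may therefore not hold for the real arrays. The number of arrays limits the precision.

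The 7 genes and all lists were chosen with earlier results of these data known. Genes of the lists were named by smallest p, 2 in each direction, markers by highest signal, and genes like Fxyd2 by Pearson's r. Atp2a2, Dscaml1, Slc12a3, Cdh16, Pax8, Slc12a4, Slc12a7 and Slc6a12 were added after their values were seen. Predicted and clone symbols were left out of the ranking by r. Of the lists, fibroblast markers had a median signal at the 41.9th percentile and a median difference of 0.06, or 0.01 without control 1. Alternatives were other normalizations, a filter on dim genes, the mean over features, the replicate number as a block and leaving out arrays.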

Additional observations from a re-analysis of the deposited data

How the results depend on the processing

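No gene passed the adjusted threshold by limma in any of the 14 other settings. The count at an unadjusted p under 0.05, 556, lay between 371 and 765 with other normalizations, was 435 without the dimmest 25% of genes and 952 over all features, ranged from 235 to 2397 with 1 array left out (2397 without control 1, 937 without control 3, 235, 268 and 304 without NPFF 1, 2 and 3) and was 1130 against control 3 alone, a fit in which the NPFF arrays supply all of the spread and the lone control is assumed to vary like them. The Fxyd2 difference was 0.33 to 0.34 with other normalizations and 0.41 against control 3 alone. Differences turned sign in some setting in 15 of the 44 genes followed. Against control 3 alone, which for genes outside the 7 was added after seeing the data, Fxyd5 was 0.0111, Atp1b2 0.0188, Fxyd4 -0.0621, Cd14 -0.0119 (0.24 over all arrays), Lyz2 -0.0405, Atp13a2 -0.00950 (0.22 over all arrays), Clcn3 -0.0408, Oxsr1 -0.0255 and Slc20a2 -0.0131, and Fxyd6 was 0.207. With 1 array left out, the ranges were -0.110 to 0.0831 for Atp1b2, -0.00443 to 0.132 for Fxyd6, -0.00136 to 0.118 for Fxyd4, -0.131 to 0.0423 for Fxyd7, -0.0787 to 0.153 for Atp1a4, -0.156 to 0.0184 for Atp2a1, -0.0177 to 0.131 for Clcn3, -0.0381 (without control 2) to 0.311 (without control 1) for Col3a1, -0.0329 to 0.219 for Oxsr1 and -0.156 to 0.0228 for Slc9a8; the cause was not tested. With the replicate number as a block the Fxyd2 difference was 0.34, 396 genes had an unadjusted p under 0.05 and 0 passed. Same-numbered arrays deviated together by r = 0.23, 0.45 and -0.33, and 1 of 3 controls correlated best with its own number. Controls 2 and 3 both correlated best with NPFF 2, at 0.45 and 0.41, so this check cannot decide whether the numbers pair the samples. The main fit used the group only. Signal over background could not be read from these values, which limits Fxyd1, Atp1b1 and Atp1b2 most.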
